A study of Mus musculus with 4 samples.

Results

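The tRNAs described here are the cytoplasmic tRNA features for alanine, arginine, asparagine, cysteine, glutamine, isoleucine, methionine (elongator Met and initiator iMet), phenylalanine, proline, threonine and tryptophan, with a pair of suppressor features. They were chosen by name, as all tRNA features whose isotype is not Gly, Glu, Asp, Val, Lys, His, Leu, Ser, SeC or Tyr. The rule uses no measured value, but earlier results of these data were known when it was set. There are 134 of them among 239 tRNA features and 141239 features in all, and they cover 12 isotypes and 24 anticodons. The 2 suppressor features (Sup-TCA and Sup-TTA) had at most 9 counts in a library and are not described further.

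The study sequenced small RNA from RAW264.7, a mouse macrophage-like cell line, and from the extracellular vesicles those cells shed. Each of 4 groups has 1 library: cells and vesicles carrying a non-silencing short hairpin RNA (shNS), and cells and vesicles carrying a hairpin against Dis3l2 (shDis3l2), an exonuclease that degrades uridine-tailed RNA. All cells received doxycycline at 1 µg/mL for 3 days, and then for another 24 h in medium with vesicle-depleted bovine serum, from which the vesicles were collected. Vesicles were purified by centrifugation and a sucrose gradient and treated with micrococcal nuclease before RNA extraction. No difference below has a replicate check, and the intervals given are exact 95% intervals that cover counting error only.

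A tRNA carries an amino acid at its 3′ end and reads a codon with its anticodon. Its gene is transcribed by RNA polymerase III, the transcript is trimmed at both ends by RNase P and RNase Z, and a few precursors, among them those of Arg-TCT and Ile-TAT, carry an intron next to the anticodon that is spliced out. Initiator Met starts translation and does not serve elongation. Mature tRNAs and fragments cut from them are well-known components of the small RNA of extracellular vesicles. Reads were at most 50 nt long and the table gives counts per tRNA, so whole tRNAs and fragments of any length cannot be told apart here. Names follow the table: Arg-TCT-1-1 is the first gene of the first sequence variant (isodecoder) with the anticodon TCT, and "spliced" marks a feature without its intron.

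Both anticodons with introns are shown first, because the table separates their spliced and intron-holding forms. The anticodon ends 1 base before each intron, and the intron is in capitals. Sequences are from RefSeq coordinates on GRCm38.p6, read 5′ to 3′ on the strand of the gene in GENCODE M21 transcripts that hold them. The table does not pair RefSeq symbols with its own numbering, so each stands for its anticodon and not for 1 feature. n-TRtct2 (chr3:122292948-122293032, minus strand) is 85 nt long with an intron of 12 nt and lies inside Gm17494. n-TItat14 (chr13:21896938-21897031, minus strand) is 94 nt long with an intron of 20 nt and lies inside Mir1983.
n-TRtct2: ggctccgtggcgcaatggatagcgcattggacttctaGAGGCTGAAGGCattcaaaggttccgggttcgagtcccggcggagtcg
n-TItat14: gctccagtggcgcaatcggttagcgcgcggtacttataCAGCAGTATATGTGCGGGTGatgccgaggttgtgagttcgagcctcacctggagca

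An intronless gene of Ala-AGC, an anticodon that differed between the cell libraries, and one of Arg-TCG, part of whose reads may be counted elsewhere, are shown with the anticodon in capitals. n-TAagc16 lies at chr13:21222586-21222657 on the plus strand and has 72 nt. n-TRtcg5 lies at chr7:79466419-79466491 on the plus strand and has 73 nt. Both come from RefSeq promoter windows.
n-TAagc16: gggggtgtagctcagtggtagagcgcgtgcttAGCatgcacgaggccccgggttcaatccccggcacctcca
n-TRtcg5: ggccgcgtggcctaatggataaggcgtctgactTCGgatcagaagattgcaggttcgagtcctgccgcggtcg

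RefSeq lists 222 genes for these isotypes, of which 58 lie on chromosome 13. Cys-GCA has 56 of them, 48 between 47978997 and 48363532 on chromosome 6 (start positions). Of the 222, 214 are 70 to 74 nt long. Levels, given as counts per 1000000 counts of the library (CPM), are therefore compared between tRNAs without division by length. RefSeq has 15 Ile-AAT and 13 Asn-GTT genes, where the table has 4 and 5 features. A feature may thus stand for several gene copies, and for these tRNAs "gene" below means a feature and not 1 locus.

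Depth was 17612856 to 19741041 counts per library, and a count of 0 allows up to 0.152 to 0.170 CPM (3 counts per library). For every set of 4 values the order is cells labelled shNS, cells labelled shDis3l2, vesicles labelled shNS, vesicles labelled shDis3l2. The share of miRNA hairpins was 68.3%, 61.2%, 19.1% and 10.5%. Dis3l2 had 41, 13232, 1713 and 1894 counts. In cells its CPM was 342-fold higher (255 to 482) where the label is shDis3l2. Whether these short reads come from the Dis3l2 mRNA or from the hairpin against it was not tested. They therefore do not give the level of the mRNA, and libraries are named by their labels throughout. Of 12 macrophage and blood-cell markers, 10 or 11 were above 0 in every library, led by Mir142, Mir21a and Mir146. Mir223 was at 0 in all 4. Their summed level was 124408, 82657, 33619 and 14260 CPM.

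The 134 tRNAs together made up 6818, 8183, 62828 and 48789 CPM. They were thus a small part of the cell libraries and a much larger part of the vesicle libraries. As a share of all tRNA counts they were steady by comparison, at 16.9%, 15.8%, 16.3% and 13.8%. Of the features, 88 had counts in all 4 libraries and 55 had at least 100 in each. Another 49 reached 100 counts in no library, 16 of them Cys-GCA, and 12 of the 49 were at 0 throughout: 5 of Cys-GCA and 1 each of Ala-AGC, Ala-CGC, Arg-TCG, Asn-GTT, Ile-TAT, Met-CAT and Thr-AGT. A single feature led most anticodons. The most abundant was the same in every library for 17 of 24 anticodons and held at least 50% in every library for 15, among them Ile-AAT-1-1 with at least 99.8% and Asn-GTT-3-1 with at least 99.0%.

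The order of isotypes differed between cells and vesicles. In the cell library labelled shNS, proline tRNAs led with 1984 CPM, ahead of arginine (1077), glutamine (837), cysteine (700) and initiator Met (625). In the vesicle library labelled shNS, arginine tRNAs led with 32955 CPM, followed by glutamine (7561) and cysteine (6723), while proline had 1783 and initiator Met 749. Phenylalanine was lowest in both cell libraries, with 52.9 and 53.9 CPM. Tryptophan was lowest in both vesicle libraries, with 402 and 315 CPM. Some neighbours in the order lay close together: in the vesicle library labelled shDis3l2, alanine had 2541 CPM and isoleucine 2510.

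**Figure D1:**
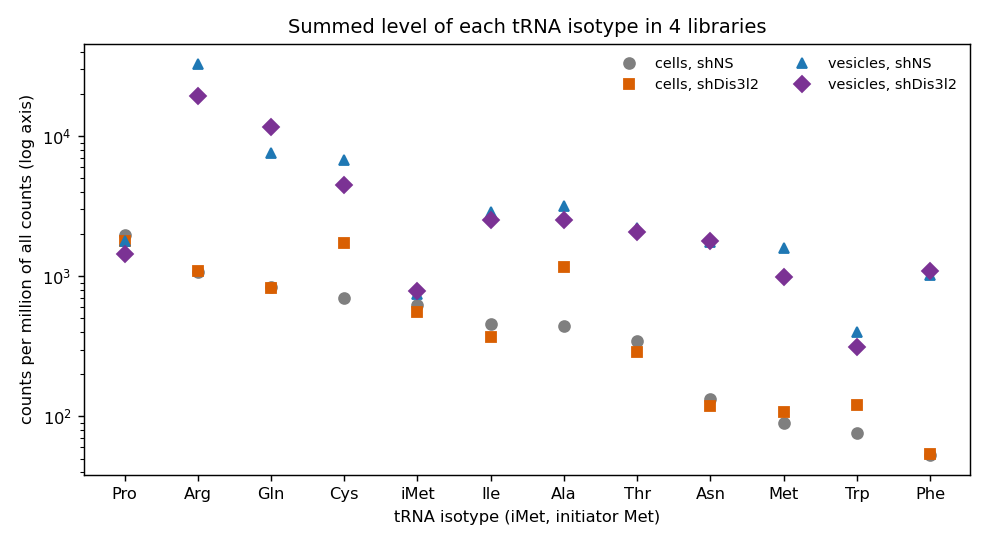
Summed CPM (log axis) of each isotype in the 4 libraries, 1 point per library, ordered by the cell library labelled shNS. Both vesicle points lie above both cell points for 11 isotypes, by little for initiator Met (749 and 784 against 625 and 559 CPM), and those of proline overlap. Among all features, 74.6% (shNS) and 76.9% (shDis3l2) were at least 2-fold higher in vesicles, and the share without overlap was not taken.

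Vesicles were first compared with the cells that released them, which asks which tRNAs weigh more in vesicle RNA than in cell RNA. Arg-TCT, which reads AGA codons, stood far above its cell level. It had 488, 401, 29432 and 16598 CPM. Both vesicle values exceeded both cell values, by 60.3-fold (59.1 to 61.6) with the label shNS and 41.4-fold (40.4 to 42.3) with the label shDis3l2. Phe-GAA followed with 52.9, 53.9, 1021 and 1085 CPM, a 19.3-fold and a 20.1-fold difference. Met-CAT, the elongator Met tRNA, had 89.8, 108, 1597 and 988 CPM and was 17.8-fold and 9.16-fold higher. Asn-GTT, with 134, 118, 1758 and 1793 CPM, was 13.1-fold and 15.2-fold higher. In all 4 anticodons the cell and vesicle values did not overlap, which also held for initiator Met (625 and 559 against 749 and 784 CPM). The share of all features without overlap was not taken. Higher values in vesicles were also the common case among all features, with 74.6% (shNS) and 76.9% (shDis3l2) at least 2-fold higher.

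Proline and initiator Met tRNAs behaved otherwise. Pro-TGG, the most abundant proline anticodon, had 1433, 1399, 1149 and 847 CPM, with log2 ratios of vesicles to cells of -0.32 (-0.34 to -0.29) and -0.72 (-0.75 to -0.70). Pro-CGG had 539, 370, 632 and 580 CPM, with log2 ratios of 0.23 and 0.65. Initiator Met had 625, 559, 749 and 784 CPM, or 0.26 (0.23 to 0.30) and 0.49 (0.45 to 0.52). These values lay within 2-fold in either direction, below the median of all features (2.19 for shNS and 2.42 for shDis3l2). Pro-AGG rested on few counts (232, 148, 42 and 309) and gave opposite directions with the 2 labels, 5.04-fold lower and 2.18-fold higher in vesicles.

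**Figure D2:**
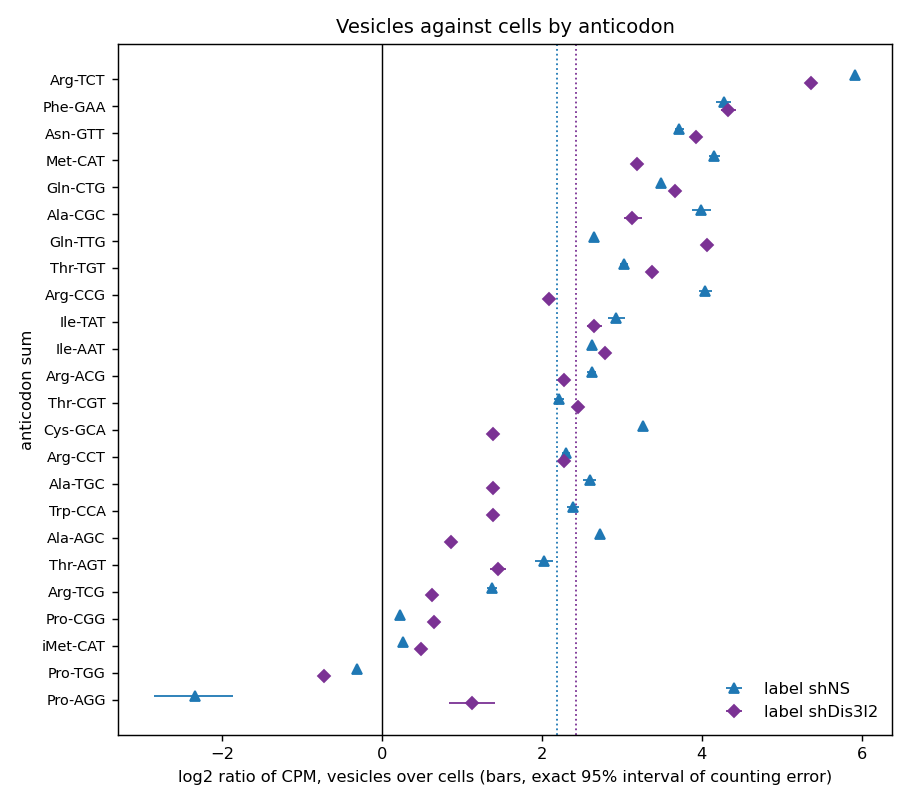
Log2 ratio of CPM of vesicles over cells for 24 anticodon sums with each label, with exact 95% intervals of counting error. Dotted lines mark the medians of all features (2.19 and 2.42). Arg-TCT is highest with both labels, and Pro-TGG, Pro-CGG and initiator Met lie far left of both lines.

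By gene, 68 of the 80 tRNAs with at least 100 counts over the libraries compared were at least 2-fold higher in vesicles with the label shNS, with an interval that excludes 1, and 1 was lower. Among all features 74.6% were higher and 13.6% lower by that rule. With the label shDis3l2, 64 of 83 were higher and 3 lower, against 76.9% and 12.9% of all features. Most features of every kind were thus higher in vesicles in CPM. The tRNAs were higher in 85.0% and 77.1% of cases, the second of them at the background share. The median log2 ratios of the tRNAs were 2.99 and 2.86, beside 2.19 and 2.42 for all features. An additive fit of compartment and label over the 4 libraries (edgeR, Benjamini-Hochberg adjustment over 10725 features, 1 residual degree of freedom) called 68 of 89 tRNAs higher in vesicles, 1 lower and 20 neither, against 72.2% and 11.1% of all features. The tRNA called lower was Cys-GCA-7-1, with 771, 422, 369 and 0 counts.

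The same fit gave the main genes of these anticodons as follows. It used the total counts as library sizes, without TMM factors, so its calls hold for that scale only. Each compartment has 1 library per label, and these are not replicates. Spliced Arg-TCT-1-1 was higher by a log2 value of 6.38, with an adjusted p of 1.5e-05 from edgeR. Phe-GAA-1-1 was higher by 4.24, Met-CAT-1-1 by 3.02 and Asn-GTT-3-1 by 3.83, and the fit called each of them. Pro-TGG-2-1 (log2 -0.63, edgeR adjusted p = 0.22), Pro-CGG-1-1 (0.44, 0.42) and iMet-CAT-1-1 (0.39, 0.46) were not called. Other genes not called included the Arg-TCG genes 2-1, 3-1 and 4-1.

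Ratios taken inside a library do not depend on the scale and gave the same contrasts. Elongator Met had 0.144 and 0.193 counts for each initiator Met count in cells, and 2.13 and 1.26 in vesicles. That ratio was 14.8-fold and 6.54-fold higher in vesicles with the labels shNS and shDis3l2. Initiator Met was 87.4% (86.9 to 88.0) and 83.8% of all Met counts in cells, and 31.9% (31.5 to 32.4) and 44.2% in vesicles. Arg-TCT had 0.340 and 0.287 counts per Pro-TGG count in cells and 25.6 and 19.6 in vesicles, a change of 75.2-fold and 68.3-fold. Proline and initiator Met tRNAs together held 38.3% and 28.6% of the counts of the 134 tRNAs in cells and 4.03% and 4.57% in vesicles.

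The other anticodons ranged widely, some of them as far above cells as Asn-GTT. Ala-CGC had 31.5, 39.6, 503 and 347 CPM (15.9-fold and 8.77-fold). Gln-CTG had 464, 592, 5227 and 7536 CPM and was 11.3-fold and 12.7-fold higher in vesicles. Ile-AAT had 417, 312, 2569 and 2152 CPM (6.16-fold and 6.89-fold), and Thr-TGT had 188, 137, 1526 and 1421 (8.13-fold and 10.3-fold). Cys-GCA and Ala-AGC exceeded the median of all features where the label is shNS (9.60-fold and 6.63-fold) and lay under it where the label is shDis3l2 (2.62-fold and 1.82-fold), the library pair whose cell levels were higher. Gln-TTG, with 373, 238, 2334 and 3994 CPM, was 6.26-fold and 16.8-fold higher. Arg-CCG, with 69.9, 102, 1153 and 435 CPM, had the opposite order, 16.5-fold and 4.26-fold. Arg-ACG (6.16-fold and 4.85-fold), Arg-CCT (4.94-fold and 4.83-fold) and Thr-CGT (4.63-fold and 5.48-fold) lay near the median of all features with both labels. Thr-AGT, with 43.6, 58.2, 178 and 159 CPM, was 4.07-fold and 2.73-fold higher, and Arg-TCG 2.60-fold and 1.54-fold. Over 24 anticodons the ratios with one label and with the other had a Spearman rho of 0.771 and a Pearson r of 0.761. These points share the 4 libraries and their totals.

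Scaling decides how these ratios are read. With TMM factors every vesicle-to-cell ratio moved by -1.90 (shNS) and -2.11 (shDis3l2) on the log2 scale, and with the tRNA total by -3.25 and -2.77. Arg-TCT, Phe-GAA, Met-CAT, Asn-GTT, Ala-CGC and Gln-CTG remained above 0 under each scale tried. Pro-TGG was below 0 under every scale except the miRNA total, and Pro-CGG and initiator Met were below 0 with TMM factors, with size factors and with the tRNA total. As a share of all tRNA counts, proline tRNAs were 4.92% and 3.43% in cells and 0.463% and 0.408% in vesicles, initiator Met 1.55% and 1.08% against 0.195% and 0.221%, and arginine tRNAs 2.67% and 2.09% against 8.56% and 5.43%. Among 4 erythroid and serum miRNAs, Mir451a (4, 3, 376 and 157 counts) and Mir144 (5, 0, 477 and 266) were higher in vesicles. Mir122 was within 2-fold, with 6.67, 8.03, 6.87 and 9.25 CPM, and Mir486 had 3 counts or fewer. Their sum was 7.12, 8.19, 53.9 and 33.3 CPM. Their part in the vesicle values was not tested.

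Arg-TCT was mostly 1 feature. Spliced Arg-TCT-1-1 had 4884, 3834, 449874 and 253900 counts. It ranked 7 among 54362 genes and features of the vesicle library labelled shNS, with 2.47% of all its counts, and 12 in that labelled shDis3l2. It held 50.7% and 51.9% of Arg-TCT counts in cells and 84.0% and 86.8% in vesicles. Spliced Arg-TCT-3-1 held 40.6% and 39.7% in cells and 12.0% and 10.2% in vesicles, so isodecoders of 1 anticodon differed in how far they exceeded cells, 100.0-fold against 17.9-fold with the label shNS. Arg-TCT as a whole was 46.8% and 34.0% of the counts of the 134 tRNAs in vesicles and 7.15% and 4.90% in cells. Without it, the rest was 5.28-fold and 4.14-fold higher in vesicles, in place of 9.21-fold and 5.96-fold.

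The table lists intron-holding and spliced forms for 4 Arg-TCT and 2 Ile-TAT isodecoders. Summed over the isodecoders of each anticodon, intron-holding forms made up a smaller share in vesicles than in cells. For Arg-TCT they were 4.22% (3.82 to 4.64) and 5.04% (4.55 to 5.56) of counts in cells and 0.428% (0.410 to 0.446) and 0.910% (0.876 to 0.945) in vesicles. For Ile-TAT they were 62.0% (58.6 to 65.3) and 69.3% (66.4 to 72.1) in cells and 22.5% (21.5 to 23.6) and 36.2% (35.0 to 37.4) in vesicles. The intervals of cells and vesicles did not overlap within either label. In cells, Arg-TCT-2 gave most intron-form counts of Arg-TCT (340 of 406 with the label shNS, 344 of 372 with the label shDis3l2). The Arg-TCT sum therefore also depends on the mix of isodecoders, and it was not taken without Arg-TCT-2. By isodecoder, Arg-TCT-1 did not share this order (0% and 0.286% in cells, 0.260% and 0.690% in vesicles), and for Arg-TCT-3 and Arg-TCT-5 the intervals overlapped with the label shDis3l2.

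Isodecoders differed in this share. Arg-TCT-2 had 65.3% and 61.2% of its counts on the intron-holding form in cells and 4.45% and 12.1% in vesicles. Arg-TCT-1 stayed under 0.7% in every library, with 0, 11, 1171 and 1765 intron-form counts. In vesicles the share was higher with the label shDis3l2 than with the label shNS for Arg-TCT-1, Arg-TCT-2, Arg-TCT-3, Ile-TAT-1 and Ile-TAT-2. For Arg-TCT-5 the vesicle intervals overlapped. Both forms of an isodecoder share their exons, so reads within an exon were divided between them by the authors' estimation, and the shares are not counts of reads over the intron.

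**Figure D3:**
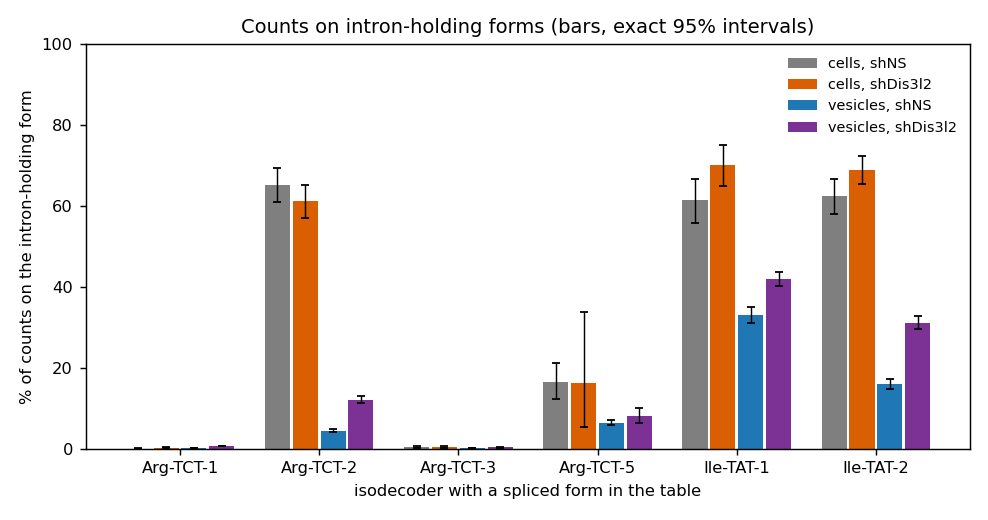
Share of counts on the intron-holding form for 6 isodecoders in the 4 libraries, with exact 95% intervals. The cell bars of Arg-TCT-2 (65.3% and 61.2%), Ile-TAT-1 and Ile-TAT-2 are tall and their vesicle bars are lower.

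Some tRNA genes lie inside longer transcripts that the table counts separately. Mir1983 overlaps n-TItat14: of the 21 nt of mmu-miR-1983 in RefSeq (chr13:21896930-21896950, minus strand), 13 are the 3′ end of the tRNA and 8, in capitals, lie past it.
mmu-miR-1983: cucaccuggagcaUGUUUUCU
Mir1983 had 145, 72, 443 and 416 counts, beside 839, 1046, 5891 and 6290 for Ile-TAT. Adding them left the vesicle-to-cell log2 ratios of Ile-TAT at 2.80 and 2.65, from 2.93 and 2.65. Gm10616, whose 2127 nt hold n-TRtcg5, had 4846, 4732, 1758 and 1452 counts, as many as Arg-TCG in cells or more (3301, 3518, 7898 and 5173). It was lower in vesicles by log2 values of -1.34 and -1.64. Summed with it, Arg-TCG moved from 1.38 and 0.62 to 0.36 and -0.25. Which of these counts come from the tRNA stretch was not tested. Gm17494, which holds n-TRtct2, had 898, 1234, 866 and 1128 counts and moved Arg-TCT from 5.91 and 5.37 to 5.79 and 5.15.

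Within several anticodons the leading gene changed between libraries. Ala-TGC-1-1 was the main Ala-TGC feature in cells with 43.0% and 74.1% and held 15.0% and 9.07% in vesicles, where Ala-TGC-2-1 had 71.2% and 74.2%, against 16.9% and 9.96% in cells. Their counts were 618, 2682, 1201 and 824 for Ala-TGC-1-1 and 244, 360, 5719 and 6733 for Ala-TGC-2-1. Arg-CCT-4-1 held 11.6% and 9.33% of its anticodon in cells and 44.7% and 49.0% in vesicles. Thr-TGT-2-1 held 25.4% and 13.4%, then 48.0% and 49.7%. Met-CAT-1-1 had the opposite order, with 79.7% and 76.5% in cells and 54.4% and 45.5% in vesicles. Each of these shifts had the same direction with both labels.

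**Figure D4:**
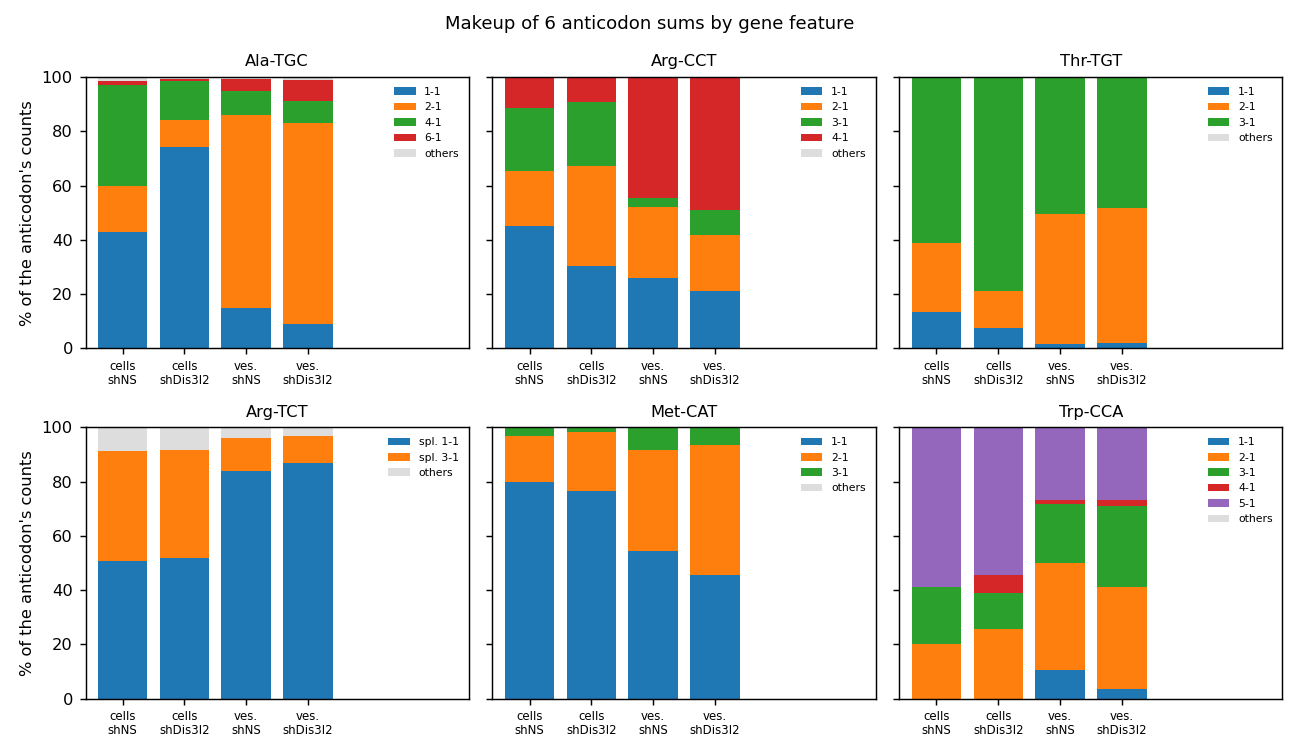
Share of each anticodon's counts held by its gene features in the 4 libraries, for 6 anticodons (features under 5% in every library are summed as others; spl., spliced). The main Ala-TGC feature is 1-1 in cells and 2-1 in vesicles.

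The number of features with 0 counts in both cell libraries and at least 100 in a vesicle library was 6. That rule picks features by their vesicle counts, and the share of all features that meet it was not taken. The largest was Gln-CTG-3-1, with 0, 0, 23299 and 31585 counts, at least 8429-fold and 11009-fold higher in vesicles. Gln-CTG-2-1, of the same anticodon, had 8041, 9421, 55512 and 81533 counts, and the sum of Gln-CTG, which a division of reads between copies does not change, was 11.3-fold and 12.7-fold higher. Trp-CCA-1-1 (0, 0, 760 and 205 counts) and Thr-AGT-3-1 (0, 0, 633 and 451) were at least 275-fold and 229-fold higher with the label shNS. Single copies of 1 anticodon are therefore uncertain, and the comparisons rest mainly on the anticodon sums. Whether reads were also divided between anticodons was not tested, so the sums and their ratios may be affected too.

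The labels shDis3l2 and shNS were then compared in cells, a comparison that the series names as a knockdown against its control. The 134 tRNAs summed to 6818 CPM (shNS) and 8183 CPM (shDis3l2), a log2 ratio of 0.26 (0.25 to 0.27). Alanine and cysteine tRNAs were higher with the label shDis3l2, and most other isotypes differed little. Ala-AGC had 334 and 923 CPM, 2.76-fold more (2.68 to 2.84). Ala-TGC had 72.8 and 197 CPM (2.70-fold), and Cys-GCA had 700 and 1717 CPM (2.45-fold, 2.40 to 2.50). The third alanine anticodon, Ala-CGC, had 31.5 and 39.6 CPM (1.26-fold). The count of Ala-AGC per Ala-CGC was 10.6 (shNS) and 23.3 (shDis3l2), a contrast free of the scale.

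The other 21 anticodons lay within 2-fold. Trp-CCA (76.7 and 120 CPM, log2 0.65) was the highest and Gln-TTG (373 and 238 CPM, log2 -0.65) the lowest of them. Arg-CCT, Phe-GAA and Pro-TGG lay within 0.04 of 0 on the log2 scale. By gene, 9 of 67 tRNAs were at least 2-fold higher and 5 lower, against 13.8% and 4.99% of all features, so the share among these tRNAs was near the background. The median log2 ratio was 0.12, beside 0.10 for all features.

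The genes that were higher belonged mostly to alanine and cysteine. Ala-AGC-4-1 had 3339 and 10767 counts (3.46-fold), Ala-AGC-2-1 947 and 2787 (3.15-fold) and Ala-AGC-7-1 303 and 1236 (4.37-fold). Ala-TGC-1-1 had 618 and 2682 counts (4.65-fold) and Cys-GCA-3-1, the main cysteine feature, 12273 and 30025 (2.62-fold). The others were Cys-GCA-1-1, Thr-AGT-2-1, Trp-CCA-2-1 and Trp-CCA-4-1. The last had 0 and 147 counts, at least 52.5-fold more. Not every alanine gene followed: Ala-AGC-6-1 had 865 and 483 counts, a log2 ratio of -0.74. Among the lower genes were Thr-TGT-2-1 (939 and 339 counts, 2.58-fold lower) and spliced Arg-TCT-5-1 (251 and 26 counts, 8.85-fold lower).

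In vesicles, the tRNAs summed to 62828 CPM (shNS) and 48789 CPM (shDis3l2), a log2 ratio of -0.36 (-0.37 to -0.36). Most of that difference was Arg-TCT, which had 29432 and 16598 CPM (1.77-fold lower, 1.77 to 1.78). With the miRNA total as the scale, every label ratio in vesicles moved by 0.86 on the log2 scale, and those of the sum (0.50) and of Arg-TCT (0.03) lay above 0. Without Arg-TCT, and on the scale of all counts, the log2 ratio of the sum was -0.05 (-0.06 to -0.05). Arg-CCG, which reads CGG codons, had 1153 and 435 CPM and was 2.65-fold lower (2.58 to 2.72), carried by Arg-CCG-3-1 with 16804 and 4131 counts. Glutamine tRNAs were higher with the label shDis3l2: Gln-TTG had 2334 and 3994 CPM (1.71-fold) and Gln-CTG 5227 and 7536 (1.44-fold). Pro-AGG was 7.52-fold higher (5.49 to 10.8) from 42 and 309 counts.

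By gene, 9 of 87 tRNAs were at least 2-fold higher and 9 lower in vesicles with the label shDis3l2, against 10.4% and 2.52% of all features. The share that was lower exceeded the background share, and 4 of those 9 were Arg-TCT features. The median log2 ratio was -0.04, beside 0.31 for all features. Arg-CCT, Ile-AAT, Thr-CGT, Asn-GTT and initiator Met were each within 0.26 of 0.

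Arg-TCT-5 went the same way in both compartments. Its spliced form had 251 and 26 counts in cells and 6462 and 795 in vesicles (7.87-fold lower, 95% log2 interval -3.08 to -2.87), and its intron form 49 and 5 in cells and 444 and 69 in vesicles. In the additive edgeR fit the intron form was 1 of 3 tRNAs called for the label (adjusted p = 0.041), and the spliced form had an adjusted p of 0.096. The others called were Cys-GCA-5-1 (0, 0, 0 and 292 counts) and Ala-CGC-3-1 (0, 9, 2 and 185), each resting on 1 vesicle library. Of all features the fit called 0.112% higher and 0.0653% lower for the label, and 10 of the 89 tRNAs (11.2%) had an unadjusted p under 0.05, against 6.43% of all features.

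The label ratios of cells and vesicles went in different directions for several anticodons. Ala-AGC and Cys-GCA, higher in cells, were lower in vesicles, with 2217 and 1678 CPM and 6723 and 4500 CPM, except with the miRNA total as the scale, where their vesicle log2 ratios were 0.46 and 0.28. Gln-TTG, lower in cells, was higher in vesicles. Over 24 anticodons the label ratios of cells and of vesicles had a Spearman rho of -0.274 and a Pearson r of -0.337. Each point rests on 4 libraries that all anticodons share. For the sum of the 134 tRNAs, the vesicle ratio minus the cell ratio was -0.63 (-0.64 to -0.62), and -0.35 without Arg-TCT. Other tRNAs shared the direction, with -0.46 for Gly, Glu, Asp, Val, Lys and His and -0.32 for Leu, Ser, SeC and Tyr.

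**Figure D5:**
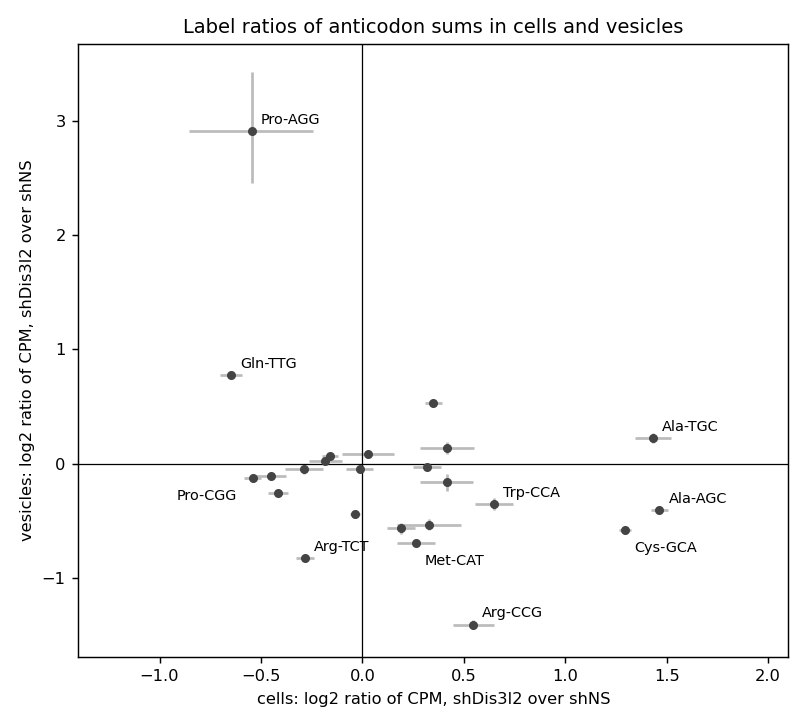
Log2 ratio of CPM, shDis3l2 over shNS, in vesicles against that in cells for 24 anticodon sums, with exact 95% intervals of counting error. Ala-AGC, Ala-TGC and Cys-GCA stand to the right, Arg-CCG and Arg-TCT are low, and Pro-AGG, with few counts, is high.

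Other tRNAs served as a comparison. The Gly, Glu, Asp, Val, Lys and His tRNAs, 53 features with 80% or more of tRNA counts in 3 libraries and 79.9% in the cell library labelled shNS, were 9.57-fold and 6.94-fold higher in vesicles. The Leu, Ser, SeC and Tyr tRNAs, 52 features, were 10.6-fold and 8.47-fold higher. Both lay near the sum of the 134 tRNAs (9.21-fold and 5.96-fold). In vesicles, their label ratios were -0.08 and 0.07, against -0.36 for the 134 and -0.05 without Arg-TCT. With 1 library a group these differences have no test.

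Genes of tRNA production and decay were taken as a list of 63. Few had enough counts in cells: 10 reached 100 over the cell libraries, of which 2 were higher with the label shDis3l2 and 0 lower, against 13.8% and 4.99% of all features. One was Dis3l2, and the other was Elac2, the RNase Z that trims the 3′ end, with 43 and 166 counts. In vesicles 5 of 49 were higher and 1 lower with the label shDis3l2, near the background of 10.4% and 2.52%. Rtcb, the tRNA ligase, had 158 and 470 counts. Pop1, a subunit of RNase P, had 133 and 309.

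Against cells, 32 of 37 of the list were at least 2-fold higher in vesicles and 2 lower where the label is shNS, against 74.6% and 13.6% of all features. Where it is shDis3l2, 37 of 40 were higher and 3 lower, against 76.9% and 12.9%. Rpph1, the RNA of RNase P, had 266, 218, 2625 and 4427 counts, and Xpot, the tRNA export factor, 67, 56, 1266 and 1612. Polr3g, a subunit of RNA polymerase III, had 44, 54, 1762 and 2759. The lower ones with both labels were Elp3 (1298, 1267, 273 and 198 counts), of the Elongator complex that modifies wobble uridines, and Brf1 (504, 598, 202 and 165), a polymerase III initiation factor. The list's median log2 ratio was 2.75 with either label, beside 2.19 and 2.42 for all features. Counts of an mRNA in these libraries come from short reads and not from whole mRNAs, and the source of those on Dis3l2 was not tested.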

How the data were processed

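Small RNA was measured in 4 libraries, 1 per group. Per the labels' protocols, the QIAseq miRNA kit was used and reads had 50 nt. Per the submitters' processing notes, cutadapt, Salmon and Novoalign were used, with the builds GRCm38 and mm10 named. No versions are given, and collapsing of reads to molecules is not stated. The deposited values are estimated counts per feature, of which 6.56% of those above 0 are whole within 0.001, and they were rounded before intervals and fits. How reads that fit several tRNA copies were divided is part of the authors' estimation.

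Counts were scaled to all counts of a library (CPM). Log2 ratios used a pseudocount of 0.5, with 95% intervals from the exact conditional method of Clopper and Pearson. A tRNA is apart when it has at least 100 counts over both libraries, a ratio of at least 2-fold and an interval that excludes 1. Where a library had 0 counts, the bound used 3 counts in that library. For the background of all features, GENCODE M21 transcripts were summed by gene (54362 genes and features); 1201 transcripts without a name there entered totals only, with at most 0.134% of a library. The members and lists were chosen with earlier results of these data known. Named genes are every isotype and anticodon sum, the most abundant gene of each anticodon, the 5 largest ratios in each direction with at least 1000 counts, the 5 largest shifts of share within an anticodon, Dis3l2 and measured genes of the tRNA list. Trp-CCA-4-1, Arg-TCT-5 in cells and genes named for their 0 counts were picked after their values were seen.

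The additive edgeR 4.0.16 quasi-likelihood fit (R 4.3.3) used compartment and label over 4 libraries, with total counts as library sizes and no TMM factors. In simulated counts without a label effect, the fit called 19 of 50 features that were 2-fold higher and 50 of 50 that were 4-fold higher. It called 2 of 4091 unchanged features. Most simulated features were unchanged, unlike those of the data, so the simulation does not check the calls made here. Python 3.11.15, numpy 2.4.6, pandas 2.3.3 and scipy 1.17.1 did the rest. Alternatives were TMM factors, median-of-ratios size factors, the tRNA total or the miRNA total as the scale, count minimums of 10, 1000 or none, a pseudocount of 5, sums by anticodon and the edgeR fit. Leaving out Arg-TCT, and the scales for single anticodons and genes, were added after the data were seen. Sequences were read at RefSeq coordinates (GRCm38.p6) from RefSeq promoter windows, GENCODE M21 transcripts and the RefSeq miRNA table.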

Additional observations from a re-analysis of the deposited data

Results flagged for a closer look

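For 12 anticodons the label ratio (shDis3l2 over shNS, log2) had opposite signs in cells and vesicles, and both intervals excluded 0. These differences were not tested, because each group has 1 library. The share of all features with opposite signs was not taken. The number is therefore not read as particular to these tRNAs. The values below are the ratio in vesicles minus that in cells, with intervals of counting error. Ala-AGC differed by -1.87 (-1.91 to -1.82), from 1.46 in cells and -0.40 in vesicles, and Cys-GCA by -1.87 (-1.90 to -1.84), from 1.29 and -0.58. Arg-CCG differed by -1.95 (-2.06 to -1.85), from 0.55 and -1.41, and Trp-CCA by -1.0 (-1.11 to -0.89), from 0.65 and -0.35. Gln-TTG differed in the opposite sense by 1.42 (1.36 to 1.48), from -0.65 and 0.77. Pro-AGG differed by 3.46 (2.91 to 4.01), from -0.55 and 2.91, and rests on 42 counts in the vesicle library labelled shNS. The other differences were under 1 on the log2 scale: Met-CAT -0.96, Ala-CGC -0.86, Arg-TCG -0.76, Thr-AGT -0.58, iMet-CAT 0.22 and Asn-GTT 0.21. The opposite signs depend on the scale. With the miRNA total they remained for 5 of the 12, and not for Ala-AGC, Cys-GCA, Trp-CCA, Ala-CGC, Arg-TCG, Met-CAT or Thr-AGT. With the tRNA total they remained for 9, not for Ala-CGC, Arg-TCG or Met-CAT, and with TMM factors or size factors for 10, not for Asn-GTT or iMet-CAT.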

How the results depend on the processing

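No paired analysis was possible because each group has 1 library and no replicate numbers to pair, and no library can be left out. The additive edgeR fit, which compares cells and vesicles with the label as a term, is the nearest to one. The scale mattered most. For the sum of the 134 tRNAs, the label log2 ratio in cells (0.26) was 0.18 with TMM factors, 0.20 with size factors, -0.10 with the tRNA total, 0.42 with the miRNA total and 0.30 without Arg-TCT. In vesicles (-0.36) it was -0.66, -0.57, -0.24, 0.50 and -0.05 in that order, and the difference of both ratios (-0.63) was -0.84, -0.76, -0.15, 0.07 and -0.35. Vesicles against cells with the label shNS (3.20) gave 1.30, 2.09, -0.05, 5.04 and 2.40, and with the label shDis3l2 (2.58) 0.46, 1.33, -0.20, 5.12 and 2.05. All tRNAs made up 4.04% (shNS) and 5.18% (shDis3l2) of counts for cells, against 38.5% (shNS) and 35.4% (shDis3l2) for vesicles. The changes of sign with the tRNA total follow from these shares. That scale moved the vesicle-to-cell log2 ratios by -3.25 (shNS) and -2.77 (shDis3l2), and the label ratio in cells by -0.36. Why the shares differ was not tested.

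Counts of tRNAs apart moved as follows. For the label in cells, higher (9), there were 5 with a minimum of 1000 counts, 14 without a minimum, 3 by anticodon and 2 by edgeR. Lower (5) became 9 with the tRNA total, 1, 9, 0 and 1. In vesicles, higher (9) became 29 with the miRNA total, 4 at 1000 counts, 1 by anticodon and 2 by edgeR, and lower (9) became 5 with the miRNA total, 16 at 10 counts or with no minimum, 5 at 1000, 1 by anticodon and 1 by edgeR. For vesicles against cells with the label shNS, higher (68) became 41 with TMM factors, 17 with the tRNA total and 20 by anticodon, and lower (1) became 12 with TMM factors, 6 with size factors, 24 with the tRNA total, 0 with the miRNA total or at 1000 counts, and 4 at 10 counts or with no minimum. With the label shDis3l2, higher (64) became 37, 27 and 19, and lower (3) became 19, 7, 29, 1 with the miRNA total, 6 at 10 counts or with no minimum, 0 by anticodon and 1 by edgeR. Fewer units are counted by anticodon, and edgeR uses all 4 libraries. The cause was not tested otherwise.

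The vesicle-to-cell ratios of these anticodons, each at least 2-fold apart on the scale of all counts, changed sign with the tRNA total. With the label shNS they were Ala-AGC -0.53, Ala-TGC -0.65, Arg-ACG -0.63, Arg-CCT -0.95, Arg-TCG -1.88, Gln-TTG -0.61, Ile-AAT -0.63, Ile-TAT -0.32, Thr-AGT -1.23, Thr-CGT -1.04, Thr-TGT -0.23 and Trp-CCA -0.87. With the label shDis3l2 they were Ala-TGC -1.38, Arg-ACG -0.49, Arg-CCG -0.68, Arg-CCT -0.50, Cys-GCA -1.38, Ile-TAT -0.12, Pro-AGG -1.65, Thr-AGT -1.32, Thr-CGT -0.32 and Trp-CCA -1.39. TMM factors reversed Arg-TCG (shNS, -0.52), Ala-TGC (-0.72), Arg-CCG (-0.02), Cys-GCA (-0.72), Pro-AGG (-0.99), Thr-AGT (-0.67) and Trp-CCA (-0.73; all shDis3l2), and size factors Pro-AGG (-0.12). Of those within 2-fold, Pro-CGG and iMet-CAT (both labels) and Ala-AGC and Arg-TCG (shDis3l2) changed sign with each of these 3 scales, and Pro-TGG with the miRNA total. Label ratios in vesicles changed sign for 15 of 24 anticodons with the miRNA total, all within 2-fold, and for 4 or 5 with each other scale, and in cells for 1 to 6. The miRNA total reversed Ala-TGC-1-1 (0.90) and Arg-TCG-4-1 (1.52), both with the label shDis3l2. A pseudocount of 5 moved 0 of 132 single values beyond their interval. Depth limits mainly Pro-AGG, Arg-TCT-5 and features at 0. Estimated division among near-identical copies limits single genes, and 1 library a group limits every comparison. Division of reads between anticodons, which would affect their sums, was not tested.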
